A study of Homo sapiens with 6 samples.

Results

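The genes described here are 10 markers of the epithelial-mesenchymal transition: the transcription factor genes SNAI1, SNAI2, ZEB1, ZEB2 and TWIST1, and the adhesion and cytoskeleton genes VIM, CDH1, CDH2, EPCAM and FN1. They were chosen by gene name from a table of 58302 rows, and each name matched 1 row. The cells were MHCC97H, a human hepatocellular carcinoma line. In DDX17_KO cells, CRISPR/Cas9 had been used to knock out DDX17, which encodes an RNA helicase. They were set against MHCC97H cells carrying a non-target control, which had gone through the same editing system. Each group held 3 RNA sequencing libraries of total RNA, and the title of the series names metastasis and splicing of the transcript PXN-AS1 as the subject of the study. Whether a line was 1 clone or a pool, and whether the libraries came from separate cultures, is not stated, so p-values reflect only how far these samples spread, and that spread may be technical.

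In an epithelial-mesenchymal transition, epithelial cells loosen the junctions that hold them together and take on a migratory, fibroblast-like form, a change studied in liver cancer as a step towards invasion. SNAI1, SNAI2, ZEB1, ZEB2 and TWIST1 encode DNA-binding factors, and the SNAI and ZEB proteins repress the genes of epithelial junction proteins such as CDH1 through E-box sequences. Loss of E-cadherin (CDH1) and EpCAM (EPCAM) together with gain of N-cadherin (CDH2), vimentin (VIM) and fibronectin (FN1) is the classical marker pattern. ZEB1 and ZEB2 are in turn repressed by the miR-200 family of microRNAs, which bind their 3′ untranslated regions.

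The miR-200 sequences are shown because they set the ZEB genes apart from nearly all other genes at the sequence level. The 5 mature strands, from RefSeq on GRCh38.p14 and written 5′ to 3′ with the seed (bases 2 to 8) in capitals, fall into 2 seed groups. The first group shares the seed AAUACUG and the second AACACUG.
hsa-miR-200b-3p, chr1:1167160-1167181: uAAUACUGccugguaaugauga
hsa-miR-200c-3p, chr12:6963742-6963764: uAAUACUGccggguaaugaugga
hsa-miR-429, chr1:1169055-1169076: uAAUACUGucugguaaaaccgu
hsa-miR-200a-3p, chr1:1167916-1167937: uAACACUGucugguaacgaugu
hsa-miR-141-3p, chr12:6964155-6964176: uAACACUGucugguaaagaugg

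The complements of the seeds are the 7-base motifs CAGTATT and CAGTGTT, which were searched on the transcript strand of the 3′ untranslated region of each gene's longest coding transcript in GENCODE release 29 (GRCh38). ZEB1 held 9 such motifs in 2549 bases, 6 of CAGTATT and 3 of CAGTGTT, and ZEB2 held 9 in 5370 bases, 5 of CAGTATT and 4 of CAGTGTT. Of 19057 such regions, with a median length of 1042 bases, 28.1% held at least 1 of the motifs and 6 regions, or 0.0315%, held 9 or more, ZEB1 and ZEB2 among them. The regions differ in length, and a motif match is not a measured site. The first 2 motifs of each kind in each gene are given with the motif in capitals.
ZEB1, chr10:31527618-31527647, plus strand: attgttttatcttatCAGTATTatcactct
ZEB1, chr10:31527712-31527741, plus strand: atgctaaatccgcttCAGTATTttattatg
ZEB1, chr10:31528031-31528060, plus strand: caaaatcatcagaatCAGTGTTtgtgattg
ZEB1, chr10:31528782-31528811, plus strand: tgagatttgatttaaCAGTGTTatgttaac
ZEB2, chr2:144389045-144389074, minus strand: cgcactaccatacatCAGTATTtttattat
ZEB2, chr2:144388982-144389011, minus strand: cgcactacaatgcatCAGTATTatgattcc
ZEB2, chr2:144389229-144389258, minus strand: tgcaaaaattttgtaCAGTGTTaaggccta
ZEB2, chr2:144388703-144388732, minus strand: agtgccatccttgtaCAGTGTTaagagggt

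Transcripts of the microRNA host genes MIR200CHG and MIR205HG were close to undetected, and a host of the chromosome 1 cluster (miR-200b, miR-200a and miR-429) was not analysed here. MIR200CHG, the host of miR-200c and miR-141, was listed at 0 in all 3 DDX17_KO libraries and in control replicates 2 and 3, and stood at 0.695 FPKM, about 3 fragments, in control replicate 1. MIR205HG, the host of miR-205, which also targets the ZEB genes, was listed at 0 in all 6 libraries. For MIR200CHG, whose annotated transcript is 350 bases long, 3 fragments make between 0.587 and 1.61 FPKM depending on the library. A level below that could be missed. Mature microRNAs were not measured by this assay.

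Levels are in FPKM, fragments scaled for transcript length and library depth, as the authors deposited them, and fold changes are differences of log2(FPKM + 1), DDX17_KO minus control. The steps between low values put the depth at 10600000, 5340000 and 8190000 fragments for DDX17_KO replicates 1, 2 and 3 and at 12340000 to 14590000 fragments for the controls. DDX17 itself measured 22.4, 7.64 and 19.1 FPKM in DDX17_KO replicates 1, 2 and 3, against 45.7, 41.4 and 43.9 FPKM in the controls (log2 fold change -1.48, limma adjusted p 0.282). Of 13 hepatocyte and liver cancer markers, the keratins KRT8 and KRT18 were abundant, while the other 11, among them ALB, AFP, HNF4A and GPC3, reached at most 0.0372 FPKM in DDX17_KO and 0.365 FPKM in controls. The defining liver markers were thus near 0 in both lines. Replicate 2 of each group stood apart from replicates 1 and 3 in a way that followed GC content across genes, and values with and without DDX17_KO replicate 2 are given below.

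The mesenchymal markers VIM and CDH2 were abundant, FN1 was low, and the epithelial adhesion genes CDH1 and EPCAM were close to 0 in both groups. By mean FPKM, the order in DDX17_KO was VIM, CDH2, SNAI2, SNAI1, ZEB1, TWIST1, ZEB2, FN1, CDH1 and EPCAM. In controls it was VIM, CDH2, SNAI2, SNAI1, TWIST1, ZEB1, FN1, ZEB2, EPCAM and CDH1. The steps between VIM, CDH2, SNAI2 and SNAI1 were larger than the spread over libraries in both groups, with no overlap between neighbours. From SNAI1 down to FN1 in DDX17_KO, and from TWIST1 down to ZEB2 in controls, neighbours overlapped. On the log2(FPKM + 1) scale CDH1 minus CDH2 came to -4.92, -4.83 and -4.90 in DDX17_KO replicates 1, 2 and 3, and to -5.07, -4.31 and -4.89 in control replicates 1, 2 and 3, so N-cadherin transcripts far exceeded E-cadherin transcripts in every library.

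**Figure D1:**
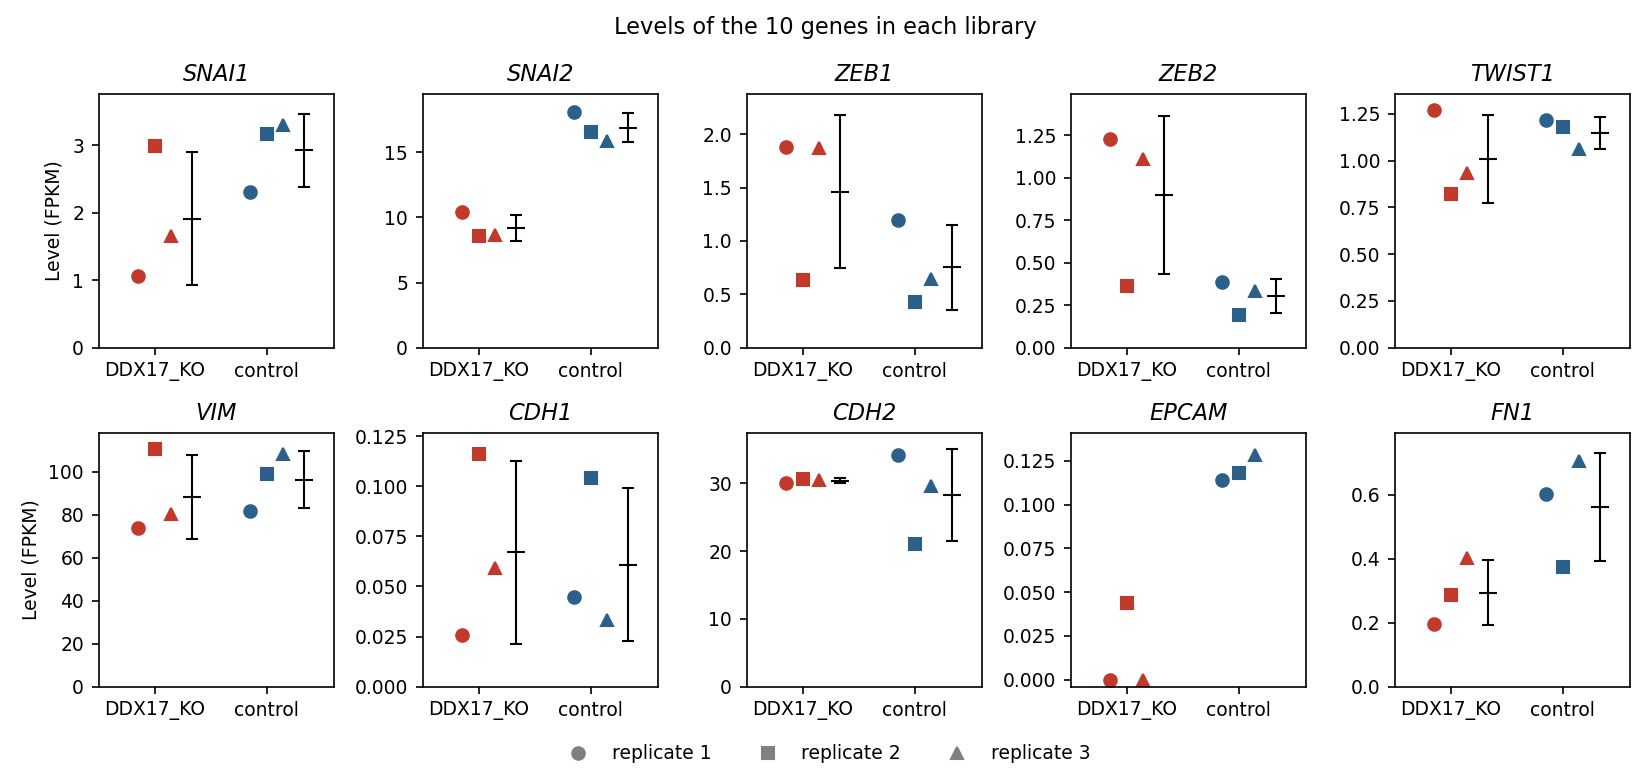
Level in FPKM (vertical axis, from 0, a scale per gene) of the 10 genes in the 3 DDX17_KO libraries (red, left) and the 3 control libraries (blue, right). Symbols give the replicate number and black bars the mean with its SD, left out for EPCAM, which was listed at 0 in 2 libraries. SNAI2 lies between 8.58 and 10.4 FPKM in DDX17_KO and between 15.9 and 18.1 FPKM in controls, and ZEB1 and ZEB2 are low in replicate 2 of both groups.

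SNAI2, which encodes the repressor Slug, was the most abundant of the 5 transcription factor genes and each of its DDX17_KO values lay below each of its control values. SNAI2 (ENSG00000019549, hg38 chromosome 8, 48917768 to 48921740, minus strand) measured 10.4, 8.58 and 8.69 FPKM in DDX17_KO replicates 1, 2 and 3, against 18.1, 16.6 and 15.9 FPKM in control replicates 1, 2 and 3. The groups were separated by a gap wider than the range within either, and the DDX17_KO mean was 54.6% of the control mean (9.21 ± 0.995 and 16.9 ± 1.11 FPKM, SD, n = 3 each). Its log2 fold change came to -0.81 (standard error 0.17, 95% confidence interval -1.21 to -0.41). The unadjusted limma p was 0.00175 and the p adjusted over all genes tested was 0.25, so SNAI2 did not pass the threshold of 0.05. Within each replicate number the difference was -0.75, -0.88 and -0.80 log2 units, so it was about as large for all 3 numbers, though no label pairs the libraries by number. Leaving out DDX17_KO replicate 2 gave -0.77 (limma adjusted p 0.0513). Leaving out both libraries numbered 2 gave -0.78 (limma adjusted p 0.0458), which passed, in a fit where 3.3% of all genes were called lower and 5.51% higher.

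SNAI1, which encodes the related repressor Snail, lay below every control in DDX17_KO replicates 1 and 3 but not in replicate 2. SNAI1 (ENSG00000124216, chromosome 20, 49982999 to 49988886, plus strand) measured 1.06, 2.99 and 1.66 FPKM in DDX17_KO replicates 1, 2 and 3, against 2.31, 3.16 and 3.30 FPKM in control replicates 1, 2 and 3. DDX17_KO replicate 2 lay inside the control range, so the groups overlapped. SNAI1 has 1 annotated transcript, and its values correspond to about 19.0, 26.9 and 22.9 fragments in DDX17_KO and 48.0, 74.0 and 81.2 fragments in controls, few enough for counting error to matter. The log2 fold change came to -0.48 (95% confidence interval -1.09 to 0.14, limma adjusted p 0.414). It was -0.73 without DDX17_KO replicate 2, and -0.18 once GC content and transcript length had been corrected for.

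ZEB1 and ZEB2 were higher in DDX17_KO replicates 1 and 3 than in every control, while replicate 2 lay within the control range. ZEB1 (ENSG00000148516, chromosome 10, 31318495 to 31529814, plus strand) reached 1.88, 0.635 and 1.87 FPKM in DDX17_KO replicates 1, 2 and 3, against 1.20, 0.424 and 0.639 FPKM in the controls. ZEB2 (ENSG00000169554, chromosome 2, 144364364 to 144524583, minus strand) reached 1.23, 0.365 and 1.11 FPKM in DDX17_KO replicates 1, 2 and 3, against 0.384, 0.193 and 0.335 FPKM in the controls. In both groups the library numbered 2 was the lowest for each gene. ZEB2 passed the filter on low values only through its DDX17_KO level, since the control mean was 0.304 FPKM.

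Neither ZEB gene passed the test. ZEB1 had a log2 fold change of 0.47 (95% confidence interval -0.18 to 1.12, limma adjusted p 0.435). ZEB2 had 0.51 (interval -0.01 to 1.03, limma adjusted p 0.369). Both differences had the same sign within each replicate number, at 0.39, 0.20 and 0.81 log2 units for ZEB1 and 0.68, 0.19 and 0.66 for ZEB2 in numbers 1, 2 and 3. No label pairs the libraries by number. Without DDX17_KO replicate 2 the log2 fold change was 0.74 for both, with limma adjusted p of 0.0737 for ZEB1 and 0.05004 for ZEB2. Corrected for GC content and length it was 0.19 for ZEB1 and 0.14 for ZEB2. Because the pseudocount of 1 FPKM understates changes of low genes, the ratio of mean FPKM, DDX17_KO over control, was larger, at 1.94 for ZEB1 and 2.96 for ZEB2.

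TWIST1, a helix-loop-helix factor gene, was low and overlapped between the groups. TWIST1 (ENSG00000122691, chromosome 7, 19020991 to 19117672, minus strand) had 1.27, 0.82 and 0.935 FPKM in DDX17_KO, against 1.22, 1.18 and 1.06 FPKM in controls. The log2 fold change came to -0.10 (95% confidence interval -0.49 to 0.28, limma adjusted p 0.754), and turned to 0.18 when corrected for GC content and length. At 7.3 to 22.5 fragments in DDX17_KO and 25.0 to 27.4 in controls over its longest transcript, TWIST1 rested on the fewest fragments in all of the 7 genes tested.

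VIM, the gene of the intermediate filament protein vimentin, was the most abundant of the 10 in both groups. VIM (ENSG00000026025, chromosome 10, 17228259 to 17237593, plus strand) reached 73.6, 110.5 and 80.3 FPKM in DDX17_KO replicates 1, 2 and 3, against 81.8, 99.1 and 108.0 FPKM in the controls. The groups overlapped, with DDX17_KO replicate 2 the highest of all 6 libraries. The log2 fold change came to -0.14 (95% confidence interval -0.66 to 0.38, limma adjusted p 0.759), and was -0.31 without DDX17_KO replicate 2.

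CDH2, the N-cadherin gene, was almost the same in the DDX17_KO libraries and varied more in the controls. CDH2 (ENSG00000170558, chromosome 18, 27950966 to 28177446, minus strand) had 30.0, 30.6 and 30.5 FPKM in DDX17_KO, against 34.2, 21.0 and 29.7 FPKM in control replicates 1, 2 and 3. The control range enclosed all DDX17_KO values. The log2 fold change came to 0.13 (95% confidence interval -0.38 to 0.64, limma adjusted p 0.773). It turned to -0.07 without control replicate 2, the library with the lowest CDH2.

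FN1, the gene of the matrix glycoprotein fibronectin, was low for a mesenchymal marker and fell short of the filter on low values, so it had no test in the fit of all genes. FN1 (ENSG00000115414, chromosome 2, 215360440 to 215436172, minus strand) had 0.196, 0.286 and 0.401 FPKM in DDX17_KO, against 0.602, 0.375 and 0.705 FPKM in controls. DDX17_KO replicate 3 lay above control replicate 2, and otherwise the DDX17_KO values were lower. With no filter, its log2 fold change came to -0.27 (95% confidence interval -0.58 to 0.04, limma adjusted p 0.521). The transcripts of FN1 differ by splicing, and their shares cannot be read from a level per gene.

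CDH1, the E-cadherin gene, was close to undetected in both groups. CDH1 (ENSG00000039068, chromosome 16, 68737225 to 68835548, plus strand) had 0.026, 0.116 and 0.059 FPKM in DDX17_KO, against 0.0448, 0.104 and 0.0333 FPKM in controls. Taken over the longest annotated transcript, these levels are about 1.3, 3.0 and 2.4 fragments in DDX17_KO and 2.7, 7.1 and 2.4 fragments in controls. The groups overlapped, and no difference was detectable at this depth (log2 fold change 0.01 with no filter, 95% confidence interval -0.10 to 0.12, limma adjusted p 0.932).

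EPCAM, the gene of the epithelial adhesion molecule EpCAM, was at trace level in the controls and listed at 0 in DDX17_KO replicates 1 and 3. EPCAM (ENSG00000119888, chromosome 2, 47345158 to 47387601, plus strand) stood at 0.0437 FPKM in DDX17_KO replicate 2, against 0.114, 0.118 and 0.128 FPKM in control replicates 1, 2 and 3. Over the longest annotated transcript the control values make about 2.4, 2.8 and 3.2 fragments, and 3 fragments would make 0.164, 0.326 and 0.212 FPKM in DDX17_KO replicates 1, 2 and 3. The shallower DDX17_KO libraries could thus not have shown the control level with certainty, and no fold is given. With no filter the limma adjusted p was 0.327.

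The summed markers of liver (keratins aside), red cells and endothelium were lower in DDX17_KO. The fibroblast sum was higher, though its genes differed in direction, and the leukocyte sums overlapped between the groups. The 11 liver markers other than keratins summed to 0.0126, 0.0372 and 0.0406 FPKM in DDX17_KO and to 0.932, 0.756 and 0.902 FPKM in controls, and 9 of them were listed at 0 in every DDX17_KO library. The 8 red cell markers summed to between 0.0211 and 0.673 FPKM in DDX17_KO and between 54.0 and 69.6 FPKM in controls, nearly all of it from HBB, HBA1 and HBA2. These 3 were among the 6 genes called lower in the fit of all genes, with limma adjusted p of 8.15e-05, 0.00121 and 0.000112. They had entered the test only through their control level. Markers of fibroblasts and stellate cells summed to 48.7 to 90.4 FPKM in DDX17_KO and 40.2 to 47.9 FPKM in controls over 12 genes, of which COL3A1 and COL1A1 were the highest and PDGFRA and THY1 were near 0. COL3A1, the largest part of the sum, had 79.8, 27.2 and 33.5 FPKM in DDX17_KO and 20.7, 25.6 and 20.5 FPKM in controls. COL1A1 went the other way, with 7.04, 11.5 and 6.11 FPKM in DDX17_KO and 12.4, 15.7 and 12.7 FPKM in controls. Endothelial cell markers summed to 0.912 to 1.47 FPKM in DDX17_KO and 2.51 to 3.07 FPKM in controls over 8 genes. The highest, EGFL7, averaged 0.707 FPKM in DDX17_KO and 1.94 FPKM in controls. PECAM1 averaged 0.137 FPKM in DDX17_KO and 0.127 FPKM in controls. Leukocyte markers summed to 2.41 to 3.78 FPKM in DDX17_KO and 2.07 to 2.64 FPKM in controls over 8 genes. Among them, PTPRC and CD3E were at or near 0. The part of these transcripts in the EPCAM values was not tested, and in bulk RNA fewer cells of a type cannot be told apart from less RNA per cell.

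**Figure D2:**
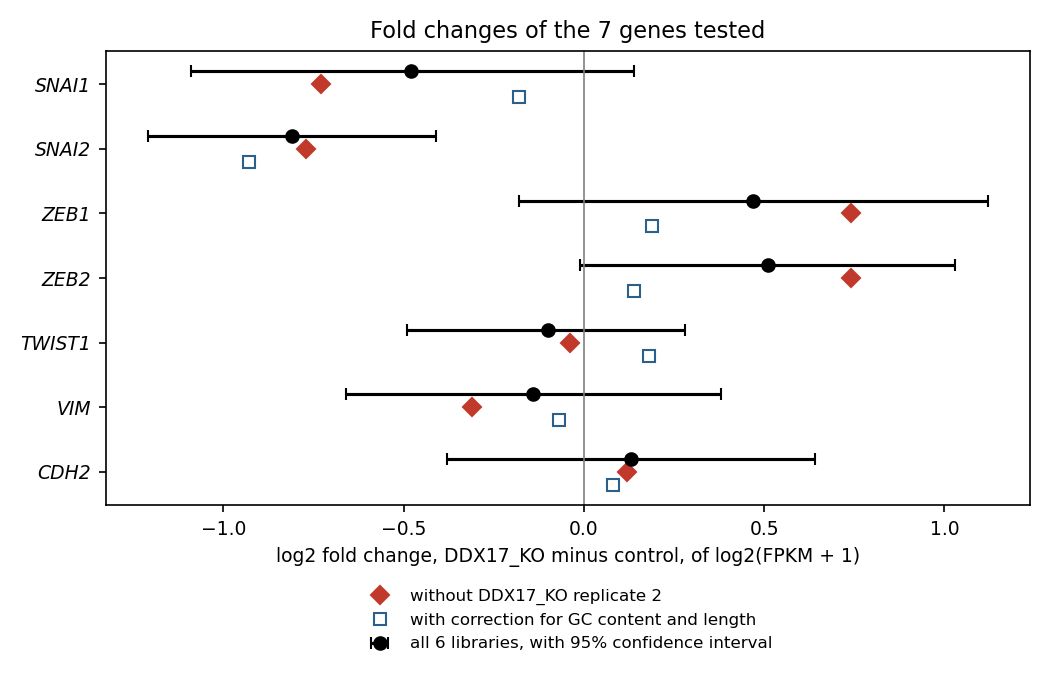
log2 fold change of log2(FPKM + 1), DDX17_KO minus control (horizontal axis), of the 7 genes tested. Black points with bars give the fit of all 6 libraries with its 95% confidence interval, red diamonds the fit without DDX17_KO replicate 2, and open blue squares the fit corrected for GC content and transcript length. SNAI2 stays between -0.93 and -0.77 in the 3 fits, while SNAI1, ZEB1 and ZEB2 move towards 0 with the correction.

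Of the 10 genes, 7 reached the mean of 0.5 FPKM over the 6 libraries that the test required, and 0 of the 7 passed at a limma p adjusted over all 15620 genes tested. In that fit 0.0384% of all genes were called lower and 0.0% higher in DDX17_KO, 6 and 0 genes. At an unadjusted limma p under 0.05 there were 1123 genes, or 7.19%, lower and 986 genes, or 6.31%, higher, and 1 of the 7, SNAI2, was among the lower ones. With the replicate number as a block, 4460 genes instead of 2109 had an unadjusted p under 0.05 in either direction, 28.6% instead of 13.5%. The groups did not overlap for SNAI2 alone among the 7, in the lower direction, where 12.6% of all tested genes had groups that did not overlap with DDX17_KO lower and 8.09% with DDX17_KO higher. By log2 fold change 4 of the 7 lay below 0, as did 52.5% of all genes tested, and 3 above 0, with a median of -0.10 beside -0.03 over all tested genes. Among those above 0, ZEB2 entered the test only through its DDX17_KO level.

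SNAI1, ZEB1 and ZEB2 departed in DDX17_KO replicate 2 in the direction that genes of their GC content took in general. The tested genes were put into 10 bins of GC content of their longest transcript, with 1555 to 1558 genes each. In the bin from 38.3% to 40.8% GC, the median gene stood at -0.51 log2 units in DDX17_KO replicate 2 relative to the mean of replicates 1 and 3, and in the bin from 57.3% to 61.3% at 0.42. ZEB1, at 38.5% GC, stood at -0.81 and ZEB2, at 39.1% GC, at -0.67. SNAI1, at 58.2% GC, stood at 0.77. VIM and TWIST1 departed from their bins: VIM, at 46.9% GC, stood at 0.52 where the median of its bin was 0.03, and TWIST1, at 57.2% GC, at -0.20 where the median of its bin was 0.40.

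GC content also went with the difference between the groups. The median log2 fold change was 0.28 in the bin that holds ZEB1 and ZEB2, -0.26 in the bin of SNAI1 and 0.19 in the bin of SNAI2. The values of ZEB1, ZEB2 and SNAI1 therefore lay on the same side of 0 as the median of genes of like GC content. SNAI2, at 41.4% GC and -0.81, lay on the other side of 0 from its bin, and stood at -0.93 when corrected for GC content and length (limma adjusted p 0.125). What makes the libraries differ by GC content was not tested.

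**Figure D3:**
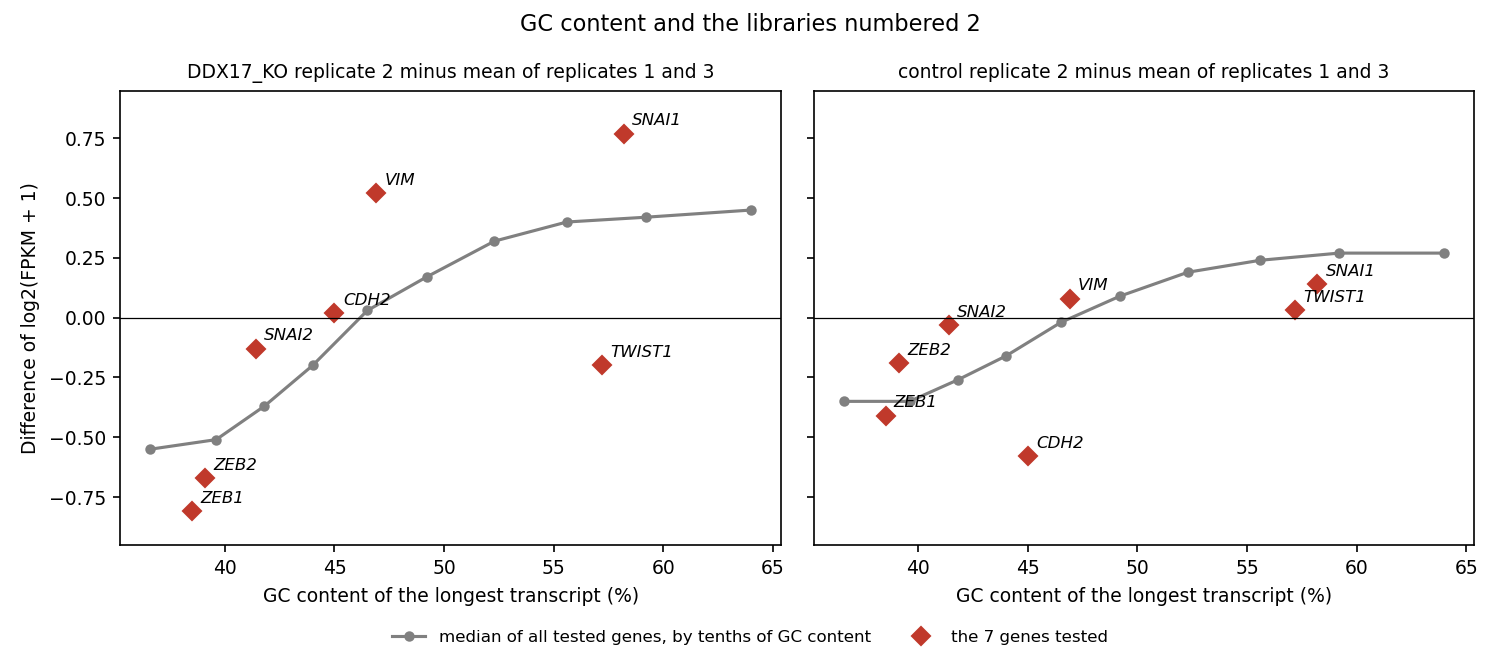
GC content of the longest annotated transcript in percent (horizontal axis) against the log2(FPKM + 1) difference between replicate 2 and the mean of replicates 1 and 3 (vertical axis), in DDX17_KO (left) and control (right). Grey points joined by a line are medians of all tested genes in 10 bins of GC content, and red diamonds are the 7 genes tested. ZEB1 and ZEB2 lie at the low end in GC and below 0 in both panels, and SNAI1 lies at 0.77 in DDX17_KO and 0.14 in control.

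Other transcription factor genes of the transition were measured beside the 5 above. Of 16 in the list, 10 were tested, 2 lay above 0 and 8 below, 0 passed, and the median log2 fold change was -0.36. Over all tested genes, 52.5% lay below 0. In 4 of the 10 the DDX17_KO values were all below the controls, which held for 12.6% of all tested genes: SNAI2, SOX4, TWIST2 and FOXC2. That share was not matched for GC content. SOX4, TWIST2 and FOXC2 had 50.7%, 57.0% and 63.2% GC, in bins with a median log2 fold change of -0.07, -0.20 and -0.31. SNAI2, at 41.4% GC, lay in a bin with a median of 0.19. SOX4, an SRY-box factor gene and with SNAI2 the most abundant of the list, had 8.94, 15.8 and 8.39 FPKM in DDX17_KO, against 17.1, 18.6 and 16.1 FPKM in controls. FOXC2, a forkhead factor gene chosen here after its values were seen, as are all further genes that are not the most abundant of their list, had 0.532, 1.51 and 0.295 FPKM in DDX17_KO, against 2.98, 5.19 and 3.47 FPKM in controls. The limma adjusted p was 0.369 for SOX4 and 0.202 for FOXC2. Without DDX17_KO replicate 2, a fit in which 1.72% of all genes were called lower and 1.95% higher, both were called lower, with limma adjusted p of 0.0361 and 0.0282.

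Epithelial programme genes other than CDH1 and EPCAM were partly present. Of 14 epithelial transcription and splicing regulators, 6 were tested, with a median log2 fold change of -0.38 and 0 passing, and GRHL2, OVOL1 and OVOL2 were listed at 0 in all 6 libraries. KLF5, the most abundant, had 36.8, 16.2 and 34.7 FPKM in DDX17_KO and 31.7, 24.1 and 27.3 FPKM in controls. ESRP2, an epithelial splicing regulator gene, had 4.28, 5.85 and 4.73 FPKM in DDX17_KO and 5.56, 7.88 and 6.53 FPKM in controls. Both overlapped between the groups. KLF4, a factor known to restrain the transition in epithelial cells, had 1.01, 2.93 and 1.06 FPKM in DDX17_KO and 2.63, 3.23 and 2.88 FPKM in controls. It was called lower without DDX17_KO replicate 2 (limma adjusted p 0.036), in a fit that called 1.72% of all genes lower and 1.95% higher. With all libraries its limma adjusted p was 0.371.

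The partners of the cadherins at cell junctions were abundant although CDH1 was near 0. Among 13 catenin and adherens junction genes, 10 were tested, the median was -0.19 and 0 passed. JUP, the plakoglobin gene, had 71.0, 104.2 and 81.5 FPKM in DDX17_KO and 89.0, 117.2 and 99.9 FPKM in controls, and VCL, the vinculin gene, 37.0, 21.6 and 41.5 FPKM in DDX17_KO and 36.4, 30.7 and 39.4 FPKM in controls. Both overlapped. CTNNB1, the beta-catenin gene, had 24.9, 25.9 and 24.6 FPKM in DDX17_KO and 31.4, 27.5 and 31.1 FPKM in controls, with no overlap and a limma adjusted p of 0.481. Among 11 cadherins, 4 were tested, 0 passed, and after CDH2 the most abundant was CDH24, at 2.77, 4.02 and 2.24 FPKM in DDX17_KO and 3.95, 5.60 and 4.59 FPKM in controls.

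In tight junctions and desmosomes, values lay on both sides of 0. Of 20 tight junction genes 10 were tested, with a median of 0.10, and of 11 desmosome genes 7, with a median of -0.07, and 0 passed in either. CLDN1, the claudin 1 gene, had 25.4, 12.9 and 38.6 FPKM in DDX17_KO and 22.9, 19.4 and 23.4 FPKM in controls. PARD3, a polarity gene, had 9.96, 7.51 and 10.6 FPKM in DDX17_KO and 8.51, 7.98 and 9.11 FPKM in controls. DSG2, the gene of the desmosomal cadherin desmoglein 2, had 57.7, 18.1 and 64.5 FPKM in DDX17_KO and 23.8, 7.14 and 24.3 FPKM in controls, with a log2 fold change of 1.28 (95% confidence interval -0.09 to 2.66, limma adjusted p 0.373). DSP, the desmoplakin gene, had 26.0, 8.57 and 28.5 FPKM in DDX17_KO and 16.6, 6.66 and 16.4 FPKM in controls. As with ZEB1 and ZEB2, replicate 2 was the lowest library of each group for DSG2 and DSP.

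Among 16 genes of EPCAM partners and cleavage enzymes, 14 were tested, the median was -0.22 and 0 passed. NCSTN, a subunit gene of the gamma-secretase that cleaves EpCAM, had 14.0, 23.1 and 17.2 FPKM in DDX17_KO and 18.6, 23.0 and 20.8 FPKM in controls. FHL2, a cofactor of its intracellular fragment, had 9.21, 14.1 and 11.4 FPKM in DDX17_KO and 15.6, 17.8 and 17.6 FPKM in controls, with no overlap and a limma adjusted p of 0.369. Among 13 intermediate filament and linker genes, 12 were tested, 11 lay below 0, the median was -0.24 and 0 passed. Over all tested genes, 52.5% lay below 0, a share not matched for GC content. The 12 ran from 46.9% GC (VIM) to 67.0% GC (PLEC). In the bins that cover this range, the median log2 fold change of all tested genes ran from 0.00 to -0.31. The epithelial keratins KRT7 and KRT18 were higher than VIM in every library, with KRT7 at 309.9, 418.8 and 292.8 FPKM in DDX17_KO and 365.5, 529.5 and 386.1 FPKM in controls.

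Mesenchymal markers lay mostly below 0. Of 26 in the list, VIM, CDH2 and FN1 included, 21 were tested, 14 below 0 and 7 above, with a median log2 fold change of -0.22 and 0 passing. Over all tested genes, 52.5% lay below 0. Of the tested 21, 9 had DDX17_KO values all below the controls, which held for 12.6% of all tested genes. That share was not matched for GC content. These 9 ran from 50.6% GC (TGFBI) to 60.4% GC (LGALS1). In the bins from 47.8% to 61.3% GC, the median log2 fold change of all tested genes ran from -0.07 to -0.26. LGALS1, the galectin 1 gene, had 70.9, 108.5 and 109.7 FPKM in DDX17_KO and 133.2, 162.6 and 132.5 FPKM in controls, and S100A4 averaged 81.9 ± 11.3 FPKM in DDX17_KO and 111.8 ± 20.4 FPKM in controls (SD, n = 3 each). The fit without DDX17_KO replicate 2 called 1.72% of all genes lower and 1.95% higher. Of the tested 21 it called 3 lower and 0 higher. Among the 3 were TGFBI, the gene of a matrix protein induced by TGF-beta, and COL5A1, a collagen V chain gene. Their limma adjusted p in that fit was 0.0264 for TGFBI and 0.0454 for COL5A1. With all libraries their limma adjusted p was 0.315 for TGFBI and 0.276 for COL5A1.

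Receptors and matrix partners of fibronectin differed in direction among themselves. Of 17 genes 11 were tested, 7 below 0 and 4 above, with a median of -0.27 and 0 passing. FBN1, the fibrillin 1 gene, had 57.3, 23.3 and 67.3 FPKM in DDX17_KO and 23.0, 10.6 and 24.2 FPKM in controls, and ITGB1, the integrin beta 1 gene, had 90.4, 37.8 and 88.5 FPKM in DDX17_KO and 53.0, 25.2 and 44.8 FPKM in controls. ITGA5, which pairs with ITGB1 as the fibronectin receptor, had 11.9, 14.1 and 8.58 FPKM in DDX17_KO and 16.6, 20.6 and 17.1 FPKM in controls, with no overlap and a limma adjusted p of 0.366. FBLN1 and LTBP1, genes of matrix proteins that bind fibronectin or lie beside it, were called lower without DDX17_KO replicate 2. The limma adjusted p was 0.0388 for FBLN1 and 0.0155 for LTBP1, against 0.155 and 0.192 with all libraries. The fit without that library called 1.72% of all genes lower and 1.95% higher. LTBP1 passed the filter on low values only through its control level. It had 0.0137, 0.749 and 0.0178 FPKM in DDX17_KO and 1.96, 1.92 and 1.82 FPKM in controls.

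Genes that act on the SNAI proteins or upstream of them gave 0 calls as well. Of 22 genes of SNAIL stability and corepressors 21 were matched and 19 tested, with a median of 0.09. KDM1A, the histone demethylase that SNAI1 recruits, had 46.7, 48.0 and 47.5 FPKM in DDX17_KO and 65.1, 73.0 and 70.0 FPKM in controls (log2 fold change -0.54, limma adjusted p 0.34), with no overlap between the groups. HDAC1, a histone deacetylase gene, averaged 22.9 ± 5.93 FPKM in DDX17_KO and 23.2 ± 1.97 FPKM in controls (SD, n = 3 each). Of 13 genes of TGF-beta ligands, receptors and SMADs 12 were tested, with a median of -0.15. TGFB1 had 17.0, 22.6 and 14.3 FPKM in DDX17_KO and 20.8, 28.6 and 23.2 FPKM in controls, and SKI, a repressor of SMAD signalling, 10.9, 15.8 and 13.0 FPKM in DDX17_KO and 17.2, 23.2 and 18.2 FPKM in controls. SMAD7, the inhibitory SMAD gene, had 3.00, 8.61 and 3.03 FPKM in DDX17_KO and 6.80, 8.87 and 6.88 FPKM in controls. It was called lower without DDX17_KO replicate 2 (limma adjusted p 0.0359), in a fit that called 1.72% of all genes lower and 1.95% higher. With all libraries its limma adjusted p was 0.405.

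**Figure D4:**
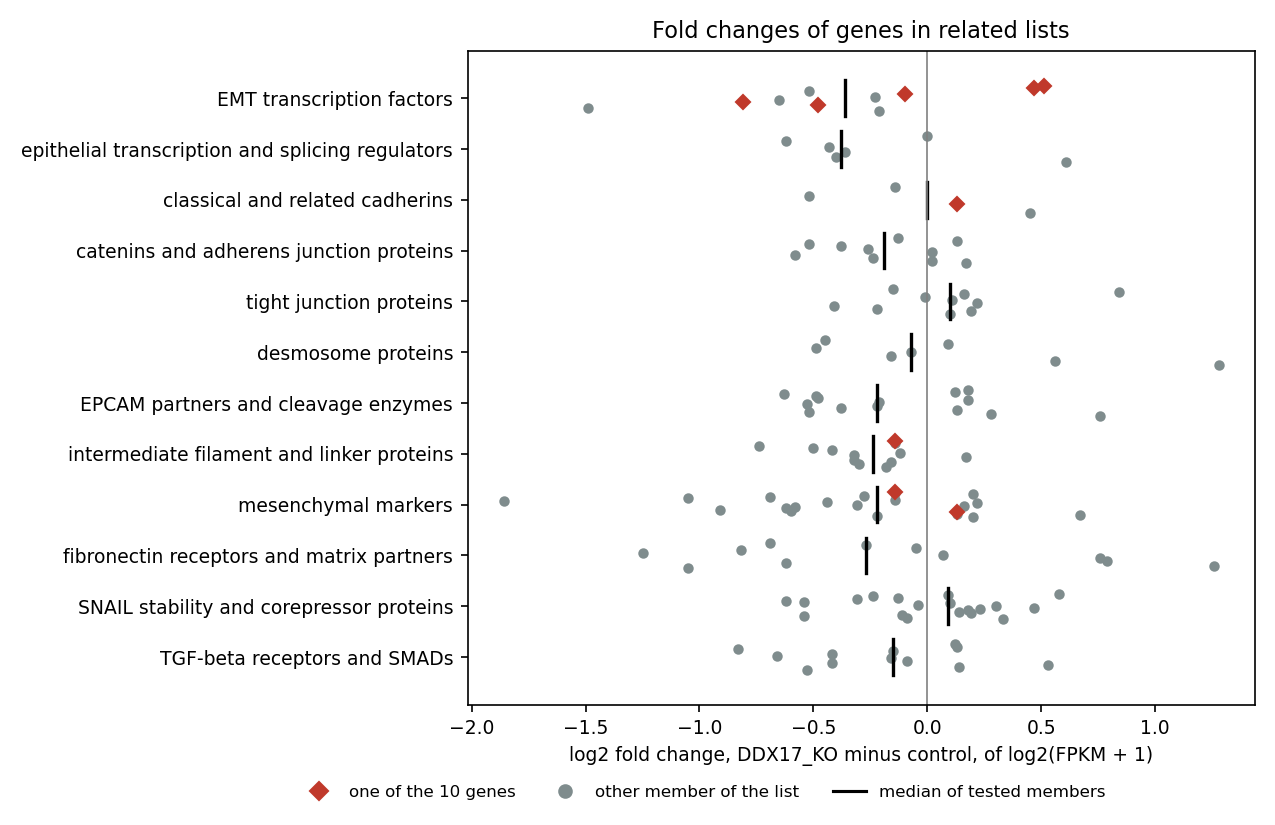
log2 fold change of log2(FPKM + 1), DDX17_KO minus control (horizontal axis), of every tested gene in 12 related gene lists (rows). Red diamonds are genes among the 10, grey points the other members and black bars the median of each list. Medians run from -0.38 for epithelial regulators to 0.10 for tight junction genes, and SNAI2 at -0.81 and ZEB2 at 0.51 are the outermost of the 10.

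Across the 6 libraries the transcription factor genes did not vary as a block. As a description, Pearson's r of log2(FPKM + 1) was 0.94 between ZEB1 and ZEB2, -0.94 between SNAI1 and each of them, 0.91 between SNAI1 and VIM and 0.45 between SNAI1 and SNAI2. The libraries share the GC-linked difference described above, and SNAI1 lies at the other end of GC content from the ZEB genes. The genes most like SNAI2 among 5799 others with a mean of at least 5 FPKM were GOLM1 (r = 0.9937) and ZZEF1 (r = 0.9842). GOLM1 had 8.03, 5.79 and 5.95 FPKM in DDX17_KO and 21.8, 21.5 and 21.1 FPKM in controls. The genes most like VIM were BOD1 (r = 0.9836) and MRPS18A (r = 0.9803), and those most like CDH2 were CD164 (r = 0.9943) and HNRNPA1 (r = 0.9842).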

How the data were processed

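The 6 RNA sequencing libraries were made from total RNA of MHCC97H cells, and samples were grouped and numbered by their titles. Expression came as a single table in which the authors deposited FPKM for every gene in each library. Per the submitters' processing notes, CASAVA 1.8, HISAT2, StringTie, edgeR and hg38 were used, with no role stated. The strand setting is not given. Of 58302 rows, 58039 had an identifier in GENCODE release 29, which supplied lengths, GC content and motifs.

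For genes with 1 annotated transcript, FPKM times length fell on multiples of a step, with 99.55% to 99.73% of values up to 20 fragments within 0.05 of a whole number, and the step gave the depth. Levels were transformed as log2(FPKM + 1) and tested two-sided with limma 3.58.1 (R 4.3.3, trended variance) in 15620 genes whose mean reached 0.5 FPKM. Benjamini-Hochberg adjusted p-values were held against 0.05. This scale understates changes of low genes. Floors of 3 fragments cover counting error only. The members and the 18 gene lists (242 of 243 entries matched) were chosen with earlier results of these data known. Named genes were the 10 members, DDX17, from each list those that passed or else the 2 with the highest mean, and for members of at least 5 FPKM the 2 most correlated genes. Some genes were named after their values were seen, and the levels of some list members are not reported here.

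On simulated data, 22.4%, 79.1% and 95.5% of genes changed by 1, 2 and 3 log2 units were recovered. There were 4 false calls among 15420 unchanged genes of 15620. The changed genes were drawn only from those with a mean log2(FPKM + 1) above 2. SNAI1, ZEB1, ZEB2 and TWIST1 lay below that level, so these rates do not cover them. The simulated spread was independent between libraries and held no GC-linked difference. Deviations from group means correlated across genes at 0.3, 0.546 and 0.214 for replicate numbers 1, 2 and 3. Each was over 0.1, and the numbers were taken to pair the libraries. This pairing is read from the values alone, and no label states it. The mark of 0.1 does not single out equal numbers. DDX17_KO replicate 1 with control replicate 3 gave 0.19, and DDX17_KO replicate 3 correlated more with control replicate 1, at 0.329. Corrected for GC content and length, numbers 1, 2 and 3 gave 0.155, 0.347 and 0.114, and DDX17_KO replicate 3 with control replicate 1 gave 0.181. Alternatives were a replicate block, pseudocounts of 0.1 and 0.01, other filters, scalings and variance models, array weights, a spline correction for GC content and length, and left-out libraries.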

Additional observations from a re-analysis of the deposited data

How the results depend on the processing

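The direction of SNAI1, SNAI2, ZEB1, ZEB2 and VIM was the same in each of the 18 or 19 alternatives run, with SNAI2 between -0.93 and -0.71 log2 units. TWIST1 turned to 0.01 with array weights and to 0.18 with the GC content and length correction, alone or with the replicate block. CDH2 turned to -0.07 without control replicate 2 and without both libraries numbered 2. Array weights gave DDX17_KO replicate 2 a weight of 0.152 and control replicate 3 a weight of 6.91. With them 1827 genes (11.7%) were higher and 2034 (13.0%) lower, and SNAI1 (-0.80), SNAI2 (-0.71), ZEB1 (0.71) and ZEB2 (0.67) passed. ZEB2 had entered the test only through its DDX17_KO level, so the filter favoured its direction. Without both libraries numbered 2, 860 genes (5.51%) were higher and 516 (3.3%) lower, and SNAI2 (-0.78) passed. The higher count was 1 with the GC content and length correction, and the lower count was 3 with no filter, where more genes were tested. With single libraries left out, the counts ran from 0 to 304 higher and from 3 to 268 lower, the highest of both without DDX17_KO replicate 2, and the log2 fold changes from -0.73 to -0.26 for SNAI1, -0.89 to -0.76 for SNAI2, 0.33 to 0.74 for ZEB1, 0.38 to 0.74 for ZEB2, -0.20 to -0.04 for TWIST1, -0.31 to -0.02 for VIM and -0.07 to 0.27 for CDH2. Without DDX17_KO replicate 1, 4 genes were higher. The replicate block gave 0 higher and 4 lower genes, left SNAI2 at an adjusted p of 0.0654 and changed no call of the 10 genes. With a pseudocount of 0.01 ZEB1 was at 0.92 and ZEB2 at 1.41. The cause of these shifts was not tested. Scalings moved the median of all genes by less than 0.1. Depth limits CDH1 and EPCAM, which rest on a few fragments.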
